A study of Mus musculus with 4 samples.

Results

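The Cys-loop receptors are ligand-gated ion channels in which 5 subunits surround a pore. The 38 genes described here encode subunits of 4 classes, 16 of GABA-A receptors, 4 of glycine receptors, 16 of nicotinic acetylcholine receptors and 2 of the serotonin-gated 5-HT3 receptor. They were chosen by symbol as members of this family, without regard to their values, and all 38 were found among the 25044 entries of the deposited tables. Further subunits of these classes are not analysed here, so a sum or share refers to the listed members only.

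Transcripts came from RNA sequencing of brain samples of C57BL/6 mice, which the study's design describes as the parasubthalamic nucleus (PSTh) of naive animals. The PSTh is a small cell group beside the lateral hypothalamus. The 4 libraries, replicates 1 to 4, formed 1 group with no stress, treatment or transgene named, and age and sex were not stated. The study profiled the unstressed PSTh to find abundant genes for later work on stress and anxiety. Nothing beyond the replicate numbers says that the samples came from separate animals. A p-value therefore reflects the spread among these samples, which may not be a spread among animals. With 1 group, subunits were compared with each other inside each library, and the libraries were compared with one another.

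GABA-A and glycine receptors conduct chloride and carry most fast inhibition in the central nervous system, while nicotinic and 5-HT3 receptors conduct cations and excite. A typical GABA-A receptor holds alpha and beta subunits with either a gamma subunit, common at synapses, or the delta subunit, found outside them and linked to tonic inhibition. Glycine receptors combine alpha subunits with a beta subunit that binds the scaffold protein gephyrin. Neuronal nicotinic receptors combine alpha and beta subunits, with alpha4 and beta2 the most widespread pair in brain and alpha6 and beta3 typical of midbrain dopamine neurons.

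Levels were read as FPKM, fragments scaled by transcript length and library size, so levels of different genes are compared per length. The depth of the libraries is unknown, and their values summed to between 428612 and 442836 FPKM. None of the 5 markers listed for the PSTh was at 0, and their sum lay between 399 and 524 FPKM. The sum hides unlike patterns. Of the 5, 4 were highest in replicate 1, while Cck was highest in replicate 3 at 144 FPKM, against 58.1 to 84.5 FPKM elsewhere. Tac1, Calb2 and Adcyap1 were lowest in replicate 3, Slc17a6 in replicate 2 and Cck in replicate 1. Tac1 was at 46.9 FPKM in replicate 3, against 77.2 to 91.7 FPKM elsewhere. The libraries differed in markers of other regions and cells. In replicate 3 all 7 thalamus markers were at their highest, with a sum of 312 FPKM against 17.8 to 45.5 FPKM elsewhere. In replicate 2, 9 of 10 markers of midbrain dopamine neurons were highest, with a sum of 1019.6 FPKM against 535 to 564 FPKM. All 4 serotonergic markers were highest there too, at 47.9 FPKM in sum against 1.84 to 2.22 FPKM, as were 6 of 7 medial hypothalamus markers, at 183 FPKM against 11.6 to 33.2 FPKM. In replicate 1 all 8 markers of spinal cord and caudal hindbrain were highest, at 22.0 FPKM in sum against 0.0745 to 0.361 FPKM. In replicate 4 the choroid plexus marker Ttr was at 49.7 FPKM, against 0.587 to 1.99 FPKM, while 2 of the 4 choroid plexus markers were highest there. In bulk tissue, fewer cells of a type and less RNA per cell cannot be told apart.

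The most abundant member was Glrb, the glycine receptor beta subunit, at a mean of 104 FPKM. Gabra3 and Gabra5 led the GABA-A members, and Chrna4, Chrna6 and Chrnb2 the nicotinic ones. Of the 38 members, 29 reached a mean of 0.1 FPKM, the minimum for a test, 21 reached 1 FPKM and 14 reached 5 FPKM. Gabrp, Chrna9, Chrnd and Chrng were the 4 listed at 0 in every library. The median level of the 29 was 4.996 FPKM, against 4.90 FPKM for all 17630 genes tested.

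Summed over the listed members, GABA-A subunits came to 117, 124, 141 and 119 FPKM in replicates 1 to 4, highest in replicate 3. In that library Gabra4 made up 23.8% of the sum and Gabrd 17.0%, against 6.79% to 8.97% and 0.466% to 2.50% elsewhere. Gabrb2 was also highest there. Gabra2, Gabra3, Gabra5, Gabrb1, Gabrg1, Gabrg3, Gabre and Gabrq were each lowest there. Glycine receptor subunits came to 133, 121, 114 and 123 FPKM, lowest in replicate 3. Nicotinic subunits came to 58.5, 92.6, 66.1 and 62.8 FPKM, highest in replicate 2. The 5-HT3 members summed to 0.720, 1.10, 0.414 and 1.20 FPKM, the smallest class in every library.

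**Figure D1:**
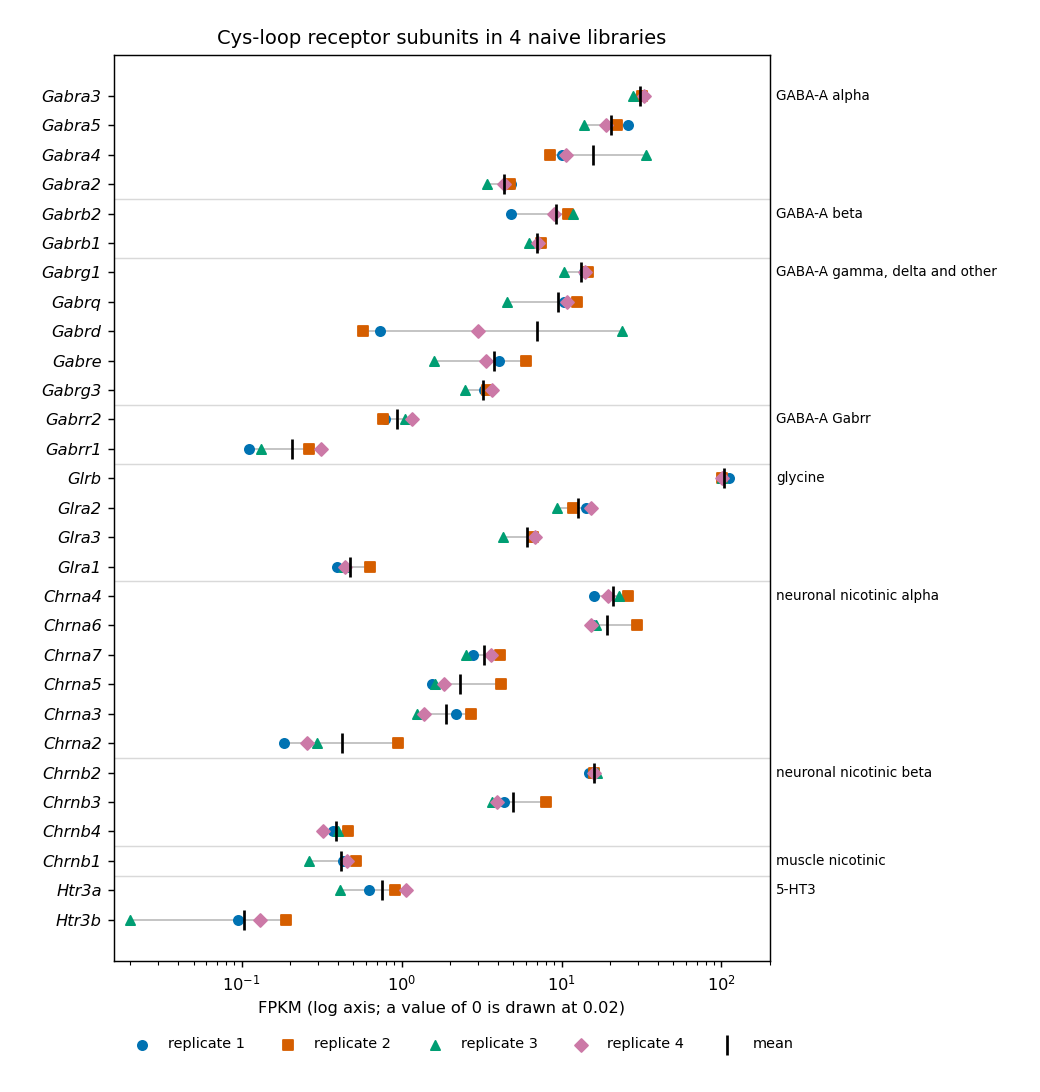
Level in FPKM (log axis) of the 29 members with a mean of 0.1 FPKM or more, by receptor class, with 1 symbol per library and a bar at the mean. A value of 0 is drawn at the left edge. Glrb stands near 104 FPKM in every library, Gabrd spreads from 0.577 to 24.0 FPKM, and Chrna6, Chrnb3 and Chrna5 have replicate 2 at the high end.

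Among the GABA-A alpha members, Gabra3 was highest, followed by Gabra5, Gabra4 and Gabra2. Gabra3 encodes alpha3, a benzodiazepine-sensitive subunit found in monoaminergic neurons, and lay at 30.8, 31.8, 27.8 and 33.0 FPKM in replicates 1 to 4. Gabra5 encodes alpha5, a subunit best known from the hippocampus, and lay at 26.2, 22.2, 13.8 and 18.9 FPKM. Gabra3 was above Gabra5 in 4 of 4 libraries, and both were lowest in replicate 3.

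Gabra4, whose product alpha4 joins delta in receptors of thalamic relay neurons, lay at 33.5 FPKM in replicate 3, against 10.1, 8.41 and 10.7 FPKM in replicates 1, 2 and 4. Replicate 3 stood at 3.44 times the mean of the other libraries, 9.75 FPKM, and was the only one with Gabra4 above Gabra5. Gabra2, which encodes a synaptic subunit, lay at 4.83, 4.77, 3.42 and 4.38 FPKM in replicates 1 to 4, below the other 3 genes in every library. Gabra6, a subunit of cerebellar granule cells, was at 0.0584 FPKM in replicate 1, at 0.0205 FPKM in replicate 4 and listed at 0 in the others. The 4 markers of those cells summed to 4.48, 2.28, 2.53 and 3.88 FPKM in replicates 1 to 4. Barhl1 led that sum at 2.69, 1.31, 1.44 and 2.49 FPKM, followed by Neurod1. Cbln3 lay at 0.130 to 0.163 FPKM, and Fat2 was at 0.0213 FPKM in replicate 1 and listed at 0 in replicates 2 and 4. The levels of Gabra6 are too low for their order to be read.

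Gabra3 took 42.7%, 47.4%, 35.4% and 49.2% of the summed alpha level in replicates 1 to 4. Gabra4 took 42.7% in replicate 3, against 12.5% to 16.0% in the others, and Gabra5 took 17.6% in replicate 3, against 28.2% to 36.4%. The leading alpha member was thus Gabra3 in replicates 1, 2 and 4 and Gabra4 in replicate 3.

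Set against Gabra2 inside each library, all 3 other alpha members tested were higher and 0 were lower. Of all genes tested, 47.4% were higher than Gabra2 and 42.8% lower. Gabra3 was higher by 2.81 on the log2 scale of FPKM + 0.1 (SE 0.12, limma, adjusted p = 7.74e-07), which is 7.00-fold. Gabra5 was higher by 2.17 (SE 0.13, limma, adjusted p = 2.79e-06), and Gabra4 by 1.60 (SE 0.39, limma, adjusted p = 0.00590). All 3 were higher in 4 of 4 libraries. Without replicate 3 the difference of Gabra4 was 1.04. Without the length correction the differences were 2.15 for Gabra3, or 4.43-fold, 1.06 for Gabra5 and 1.10 for Gabra4, and all 3 still passed.

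The beta members were close to each other. Gabrb1, encoding beta1, lay at 7.38, 7.43, 6.23 and 7.10 FPKM in replicates 1 to 4. Gabrb2, encoding beta2, a subunit of the most common synaptic receptors, lay at 4.83, 11.02, 11.9 and 9.01 FPKM. Gabrb1 was above Gabrb2 in replicate 1 and below it in the other 3 libraries, since Gabrb2 was at 0.454 times its mean elsewhere in replicate 1. The difference of -0.30 (SE 0.33, limma, adjusted p = 0.422) did not pass, while 25.2% of all genes were higher than Gabrb2 and 49.9% lower. Gabrb1 passed as lower without replicate 1, at -0.61, and as higher without the length correction, at 1.47.

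**Figure D2:**
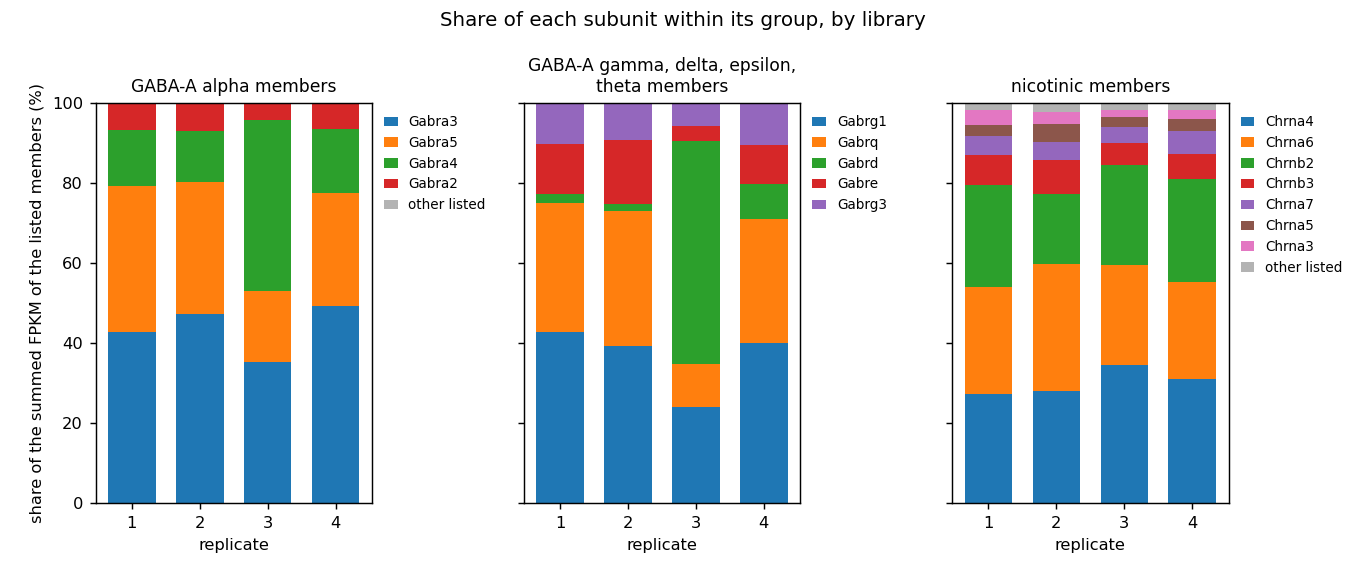
Share (%) of each subunit in the summed FPKM of the listed members of its group, by replicate, for GABA-A alpha subunits, for GABA-A gamma, delta, epsilon and theta subunits, and for nicotinic subunits. In replicate 3 Gabra4 takes 42.7% of the alpha sum and Gabrd 55.7% of the gamma, delta, epsilon and theta sum. Nicotinic shares of Chrna4 stay between 27.4% and 34.6%.

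Of the GABA-A gamma, delta, epsilon and theta subunits, Gabrg1, encoding gamma1, lay at 13.7, 14.6, 10.4 and 14.0 FPKM in replicates 1 to 4. Gabrq, which encodes theta, lay at 10.3, 12.5, 4.57 and 10.8 FPKM, and Gabre, encoding epsilon, at 4.04, 6.01, 1.59 and 3.39 FPKM. Theta and epsilon are known from the hypothalamus and from monoaminergic nuclei. All 3 genes were highest in replicate 2 and lowest in replicate 3. Gabrg3, encoding gamma3, lay between 2.50 and 3.68 FPKM and was also lowest in replicate 3.

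Gabrd had the largest ratio of highest to lowest library among the 29 members. It encodes delta, which makes receptors outside synapses that respond to low GABA and to neurosteroids. Its level was 24.0 FPKM in replicate 3, against 0.737, 0.577 and 2.99 FPKM in replicates 1, 2 and 4. Replicate 3 was at 16.7 times the mean of the other libraries, 1.43 FPKM. Gabrd took 55.7% of the summed level of these subunits there, against 1.55% to 8.59% elsewhere. Gabrg1 had the largest share in the other libraries, 39.4% to 42.7%, followed by Gabrq at 31.0% to 33.7%. The ratio of Gabra4 to Gabrd was 1.40 in replicate 3, against 13.7, 14.6 and 3.58 in replicates 1, 2 and 4.

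None of the 6 other members tested passed against Gabrd in limma. The test called 0% of all genes as higher and 0% as lower, with 31.2% at an unadjusted p under 0.05. It therefore could not show which members differ from Gabrd. Gabrg1 was at 2.37 (SE 1.27, limma, adjusted p = 0.225) and Gabrq at 1.83 (SE 1.36, limma, adjusted p = 0.356), each above Gabrd in all libraries but replicate 3. Gabrr1 was the 1 member with an unadjusted p under 0.05, at -3.12 (SE 1.25, limma, adjusted p = 0.152). Without replicate 3, Gabrg1 and Gabrq passed as higher, at 3.56 and 3.23.

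The Gabrr genes, whose GABA-A subunits are known from the retina, were low. Gabrr2 lay at 0.788, 0.761, 1.05 and 1.16 FPKM in replicates 1 to 4, and Gabrr1 at 0.112, 0.265, 0.131 and 0.313 FPKM. Gabrr3 was at 0.0119 FPKM in replicate 3, at 0.0118 FPKM in replicate 4 and listed at 0 in the others. Gabrr2 was highest in replicate 4, while the values of Gabrr1 lie too near 0.1 FPKM for the order of its libraries to be read.

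**Figure D3:**
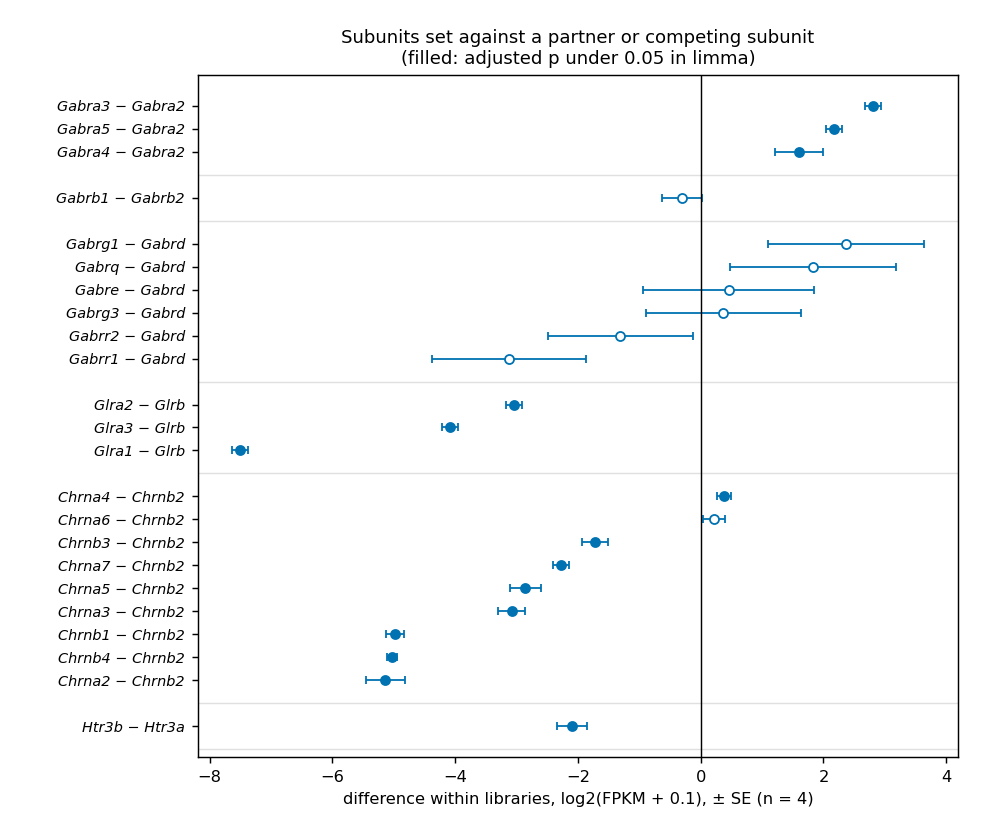
Difference inside each library between a tested member and the named subunit of its class, in log2(FPKM + 0.1), as the mean with its SE over 4 libraries, with filled symbols for an adjusted p under 0.05 in limma. Alpha members lie right of Gabra2, glycine alpha subunits lie left of Glrb at -3.04 to -7.51, and no difference from Gabrd is filled.

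Several GABA-A genes are neighbours in the genome. On GRCm38 chromosome 5, Gabrg1 (70751047 to 70842617), Gabra2 (70957597 to 71095849) and Gabra4 (71569749 to 71658308) lie on the minus strand, and Gabrb1 (71658113 to 72149037) on the plus strand. Gabra4 and Gabrb1 start head to head, and their annotated exons share 46 bases, 0.756% of the exons of Gabra4. Replicate 3 was the highest library for Gabra4 and the lowest for its 3 neighbours, at 10.4 FPKM for Gabrg1, 3.42 FPKM for Gabra2 and 6.23 FPKM for Gabrb1.

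The sequences from 250 to 56 bases before the RefSeq start (GRCm38.p6, minus strand, 5′ to 3′) are shown for the minus-strand genes of this cluster, because they border starts of neighbours with unlike levels in replicate 3. They hold no annotated exon, and capitals mark matches to the motifs named after them. They lie at chr5:71658364-71658558 for Gabra4, chr5:71095905-71096099 for Gabra2 and chr5:70842673-70842867 for Gabrg1. The Gabra4 window lies inside the annotated Gabrb1 gene, past its start at 71658113.
Gabra4: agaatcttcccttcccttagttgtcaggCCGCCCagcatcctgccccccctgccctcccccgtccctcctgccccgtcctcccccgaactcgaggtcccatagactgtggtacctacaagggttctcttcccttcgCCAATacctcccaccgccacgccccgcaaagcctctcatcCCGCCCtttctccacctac
Gabra2: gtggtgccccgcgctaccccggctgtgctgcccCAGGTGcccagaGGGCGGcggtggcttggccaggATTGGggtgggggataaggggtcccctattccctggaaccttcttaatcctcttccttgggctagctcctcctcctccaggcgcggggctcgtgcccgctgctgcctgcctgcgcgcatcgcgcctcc
Gabrg1: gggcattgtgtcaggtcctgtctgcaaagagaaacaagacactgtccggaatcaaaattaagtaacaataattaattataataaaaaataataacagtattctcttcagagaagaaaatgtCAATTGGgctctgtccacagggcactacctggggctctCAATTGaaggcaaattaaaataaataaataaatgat

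Motifs were searched on both strands. The GC box GGGCGG was found 2 times before Gabra4, 1 time before Gabra2 and 0 times before Gabrg1, and in 23.8% of 32841 windows of the same place and length. The CCAAT box, searched as CCAAT, was found 1 time in each and in 27.6% of all windows. The E-box CANNTG was found 0 times before Gabra4, 1 time before Gabra2 and 2 times before Gabrg1, where 1 match overlaps the CCAAT box, and in 58.3% of all windows. The cores TGACG of the cAMP response element and CTTTGA of TCF/LEF sites were in none of the 3, against 12.2% and 11.6% of all windows. G and C made up 63.6% of the Gabra4 window, 69.7% of the Gabra2 window and 34.4% of the Gabrg1 window, against a median of 51.3%. These are matches of letters and show no binding.

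On the X chromosome, Gabre (72255999 to 72274803), Gabra3 (72432681 to 72656848) and Gabrq (72825178 to 72842602) form another cluster. The ratio of Gabrq to Gabre lay between 2.09 and 3.19 over the 4 libraries. That of Gabra3 to Gabrq was 6.08 in replicate 3, against 2.54 to 3.05 elsewhere. All 3 genes were lowest in replicate 3, where Gabra3 was at 27.8 FPKM, against 30.8 to 33.0 FPKM elsewhere. On chromosome 7, Gabrg3 (56716465 to 57387188) and Gabra5 (57407672 to 57510059) lie 20483 bases apart, and Gabra5 was at 5.13 to 7.98 times the level of Gabrg3.

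Glycine receptor transcripts were mostly of the beta subunit. Glra2, the alpha subunit that predominates before birth, lay at 14.2, 11.9, 9.37 and 15.4 FPKM in replicates 1 to 4. Glra3, known from pain pathways of the spinal cord, lay at 6.57, 6.65, 4.33 and 6.80 FPKM, and Glra1, the main adult alpha subunit of spinal cord and brainstem, at 0.394, 0.634, 0.436 and 0.443 FPKM. Glra2 and Glra3 were lowest in replicate 3, and Glra1 was lowest in replicate 1, the library with the spinal cord and hindbrain markers. Glrb lay at 112, 101, 100.3 and 100.6 FPKM, with 81.6% to 87.6% of the summed level of the 4 genes.

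All 3 alpha members were lower than Glrb in 4 of 4 libraries, while of all genes tested 96% were lower and 2.75% higher. Glra2 was at -3.04 (SE 0.13, limma, adjusted p = 3.63e-06), Glra3 at -4.09 (SE 0.13, limma, adjusted p = 1.03e-06) and Glra1 at -7.51 (SE 0.13, limma, adjusted p = 1.87e-07). Per length, Glra2 was at 1.79 to 2.26 times Glra3, and Glrb at 6.53 to 10.7 times Glra2. Without the length correction Glra3 was at -2.998 and Glra2 at -2.986, with hardly a gap between them, and with a pseudocount of 1 Glra1 was at -6.15.

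Nicotinic transcripts were led by Chrna4, Chrna6 and Chrnb2. Chrna4, encoding the alpha4 subunit of high-affinity nicotine receptors, lay at 16.0, 25.9, 22.9 and 19.4 FPKM in replicates 1 to 4. Chrnb2, encoding its partner beta2, lay at 14.8, 16.0, 16.5 and 16.1 FPKM. Chrna4 was above Chrnb2 in every library, by ratios of 1.08 to 1.61, and was highest in replicate 2. The exons of Chrnb2 share 16.3% of their length with Adar on the opposite strand. Adar lay at 31.0 FPKM, and with no statement on the use of strand, reads of that stretch cannot be told apart.

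Chrna6, encoding the alpha6 subunit of dopamine neurons, lay at 29.5 FPKM in replicate 2, against 15.6, 16.4 and 15.3 FPKM in replicates 1, 3 and 4. Chrnb3, encoding beta3, lay at 8.03 FPKM in replicate 2, against 4.34, 3.68 and 3.93 FPKM. Chrna5, encoding an accessory subunit, lay at 4.21 FPKM in replicate 2, against 1.54, 1.62 and 1.85 FPKM. Chrna2, encoding alpha2, had the same library on top, at 0.955 FPKM against 0.184, 0.296 and 0.257 FPKM. The other 3 libraries lay close together for Chrna6, Chrnb3 and Chrna5, while for Chrna2 they ranged from 0.184 to 0.296 FPKM.

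Chrna7, whose product forms receptors from alpha7 alone, lay at 2.80, 4.12, 2.53 and 3.60 FPKM in replicates 1 to 4. Chrna3 and Chrnb4 encode the alpha3 and beta4 pair of autonomic ganglia and medial habenula. Chrna3 lay at 2.18, 2.72, 1.25 and 1.38 FPKM, and Chrnb4 at 0.373, 0.462, 0.403 and 0.324 FPKM. The 5 habenula markers summed to 44.1, 39.7, 22.4 and 32.8 FPKM, with 1 highest in replicate 1, 3 in replicate 2 and 1 in replicate 3. Chrna3 was highest in replicate 2 and lowest in replicate 3. Tac2, the most abundant marker, was lowest in replicate 3 at 11.9 FPKM, while Gpr151 was highest there at 0.509 FPKM. Chrna10, a subunit of inner ear hair cells, was at 0.0360 and 0.0417 FPKM in replicates 1 and 4 and listed at 0 in the others.

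Subunits of the muscle receptor were at or near 0. Chrnb1, encoding muscle beta1, was the highest of them at 0.427, 0.515, 0.263 and 0.457 FPKM, and Chrna1, encoding alpha1, lay at 0.0693, 0.0999, 0.114 and 0.0908 FPKM. Chrne, encoding epsilon, was at 0.0741 FPKM in replicate 3 and listed at 0 in the others, as Chrnd and Chrng were throughout. The 7 skeletal muscle markers summed to 2.69 to 3.43 FPKM, with Myog at 0 in every library.

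Set against Chrnb2, 1 of the 9 other nicotinic members tested was higher, 7 were lower and 1 did not pass, while of all genes tested 21.6% were higher and 71.8% lower. Chrna4 was higher by 0.38 (SE 0.11, limma, adjusted p = 0.0214, 4 of 4 libraries). It did not pass without replicate 2, at 0.28, without replicate 3, at 0.36, or without the length correction, at -0.10. Chrna6 did not pass at 0.22 (SE 0.18, limma, adjusted p = 0.295, higher in 2 of 4 libraries), and passed as lower without the length correction, at -0.92.

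Among the lower members, Chrnb3 was at -1.72 (SE 0.21, limma, adjusted p = 0.000617) and Chrna7 at -2.27 (SE 0.13, limma, adjusted p = 3.07e-05). Chrna5 was at -2.85 (SE 0.26, limma, adjusted p = 0.000170) and Chrna3 at -3.08 (SE 0.22, limma, adjusted p = 6.52e-05). Chrnb1, Chrnb4 and Chrna2 lay between -4.98 and -5.14. All 7 were lower in 4 of 4 libraries. Without the length correction Chrna7 was at -3.45, Chrna5 at -4.22, Chrnb4 at -5.88, Chrna2 at -6.05 and Chrnb1 at -6.45, and with a pseudocount of 1 the 3 lowest lay between -3.58 and -3.60.

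Chrnb3 (27368711 to 27399730, plus strand) and Chrna6 (27403212 to 27413944, minus strand) lie 3481 bases apart on GRCm38 chromosome 8. The ratio of Chrna6 to Chrnb3 was 3.60, 3.68, 4.46 and 3.90 in replicates 1 to 4. In replicate 2 Chrna6 was at 1.87 and Chrnb3 at 2.01 times the mean of the other libraries. Chrna5 (54980880 to 55007779), Chrna3 (55010111 to 55026562) and Chrnb4 (55028154 to 55048779) are neighbours on chromosome 9. Chrna5 was at 0.708 times Chrna3 in replicate 1 and at 1.30 to 1.55 times in the others, so these neighbours kept no single ratio.

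The 5-HT3 members were low. Htr3b, an accessory subunit, lay at 0.0952, 0.191, 0 and 0.130 FPKM in replicates 1 to 4, and Htr3a, which every 5-HT3 receptor needs, at 0.624, 0.907, 0.414 and 1.07 FPKM. Htr3b was below Htr3a in 4 of 4 libraries, at -2.10 (SE 0.24, limma, adjusted p = 0.000117), while of all genes tested 15.2% were lower than Htr3a and 70.8% higher. The size depends on the pseudocount, with -0.66 for 1 and -3.29 for 0.01. The mean of Htr3b, 0.104 FPKM, lies just above the minimum of 0.1 FPKM for a test.

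Between libraries, a limma test of each gene's variance called 0 of the 29 members and 0% of all 17630 genes. At an unadjusted p under 0.05 there were 11 members, against 5.85% of all genes, and 7 members without replicate 2 or without replicate 3. With a prior that does not follow the level there were 2 members, against 5.46% of all genes, so the count of 11 rests on the trended prior. Gabrd had a variance 138 times the value fitted for its level (limma, adjusted p = 0.123), and Gabra4 57.0 times (limma, adjusted p = 0.227). The other 9 were Gabrq, Gabre, Gabrb2, Chrna6, Gabra5, Chrnb3, Chrna5, Chrna4 and Glra2, at 6.77 to 24.5 times. The median coefficient of variation was 25.9% over the 29 members and 12.2% over all genes tested. Chrnb2, Glrb, Gabra3 and Gabrb1 varied least among the 14 members at 5 FPKM or more, with SDs of 0.07 to 0.12 in log2.

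Of the 29 members, 3, 15, 4 and 7 were highest in replicates 1 to 4, against 26.9%, 29.1%, 22.5% and 21.5% of all genes tested. The lowest value fell in replicates 1 to 4 for 7, 3, 17 and 2 members, against 28.5%, 16.8%, 35.9% and 18.8% of all genes. By Dixon's gap test, 8 of the 29 had 1 library apart, against 7.32% of all genes. It was replicate 2, high, for 4 members against 1.04% of genes, replicate 3, high, for 2 against 1.5%, replicate 3, low, for 1 against 1.19%, and replicate 1, high, for 1 against 1.4%. On the log2 scale, tried after seeing the data, 3 of the 29 kept a library apart, Glra3, Glrb and Chrna6, against 6.93% of all genes, and Gabrd, Gabra4, Chrna5, Chrnb3 and Chrna2 did not.

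Markers of other regions varied beside these subunits. Gabrd and Gabra4 were highest in replicate 3, as were the thalamus markers, whose sum was 21.0, 17.8, 312 and 45.5 FPKM in replicates 1 to 4 with none at 0 throughout. Gabrd and that sum put the libraries in the same order, replicate 3, then 4, 1 and 2. Prkcd alone made up 172 FPKM of the sum in replicate 3. The order did not hold for every marker. Tnnt1 was at 1.55 FPKM in replicate 1 and 1.68 FPKM in replicate 2, and Slc17a7 at 0.830 and 3.41 FPKM. Chrna6, Chrnb3 and Chrna5 were highest in replicate 2, as were 9 of the 10 dopamine neuron markers, while Nr4a2 was highest in replicate 1. The 10 markers summed to 564, 1019.6, 558 and 535 FPKM with none at 0 throughout. That library was not highest for this list alone. All 4 serotonergic, 6 of 7 medial hypothalamus and all 5 microglia markers were also highest in replicate 2, against 29.1% of all genes tested. The lead was small for microglia, with a sum of 89.7 FPKM there against 73.0 to 82.2 FPKM elsewhere. P2ry12 was at 12.93 FPKM in replicate 2 and 12.91 FPKM in replicate 4. In replicate 3, where Gabrq, Gabre and Gabra5 were lowest, the lateral hypothalamus markers had no common direction. Of 5, Pmch and Hcrt were lowest there, Lhx9 and Nptx2 were highest and Cartpt was neither, and their sum was 179 FPKM, against 446 to 764 FPKM elsewhere. The part of these markers in the levels of the subunits was not tested.

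**Figure D4:**
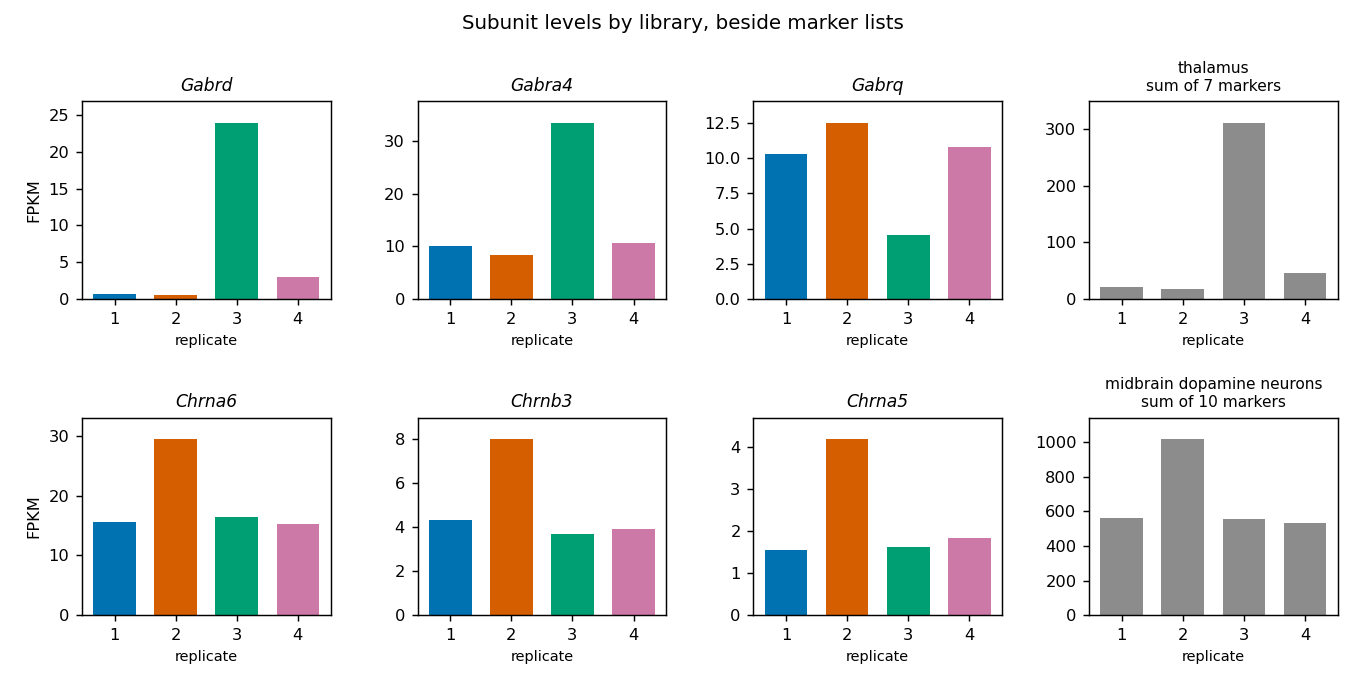
FPKM by replicate of Gabrd, Gabra4 and Gabrq beside the sum of 7 thalamus markers (top row), and of Chrna6, Chrnb3 and Chrna5 beside the sum of 10 markers of midbrain dopamine neurons (bottom row). Replicate 3 is highest for Gabrd at 24.0 FPKM and Gabra4 at 33.5 FPKM and lowest for Gabrq at 4.57 FPKM, and replicate 2 is highest in all 4 panels of the bottom row.

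Transcripts of proteins that anchor or assemble these receptors were counted against a subunit of the class. Of 20 partners of inhibitory receptors, 15 were higher than Gabrb2, 0 were lower and 5 did not pass, while of all genes 25.2% were higher and 49.9% lower. Against Glrb, 3 of the 20 were higher, 16 lower and 1 did not pass, while of all genes 2.75% were higher and 96% lower. The most abundant were Gabarapl1 at 322 ± 9.71 FPKM (SD, n = 4) and Gabarapl2 at 137 ± 4.39 FPKM, of the GABA receptor-associated protein family, and Hap1, which takes part in GABA-A receptor trafficking. Hap1 was at 90.5 FPKM in replicate 3, against 132, 168 and 169 FPKM in replicates 1, 2 and 4.

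Of 14 nicotinic partners, 13 were tested against Chrnb2, with 5 higher, 6 lower and 2 that did not pass, while of all genes 21.6% were higher and 71.8% lower. Rapsn and Musk, which cluster receptors at the muscle synapse, averaged 0.225 and 0.0805 FPKM. The most abundant were Ywhah, a 14-3-3 protein, at 562 ± 34.7 FPKM (SD, n = 4), and Ly6h and Ly6e, of the Ly6 family related to snake toxins, at 166 ± 38.2 and 135 ± 11.4 FPKM. Among 15 genes for making, carrying or degrading the ligands, the GABA transporter Slc6a11 was at 225 ± 11.4 FPKM (SD, n = 4) and Abat, which degrades GABA, at 122 ± 9.80 FPKM.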

How the data were processed

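RNA was harvested with TRIzol and made into mRNA libraries, per the labels' protocols. The deposited tables hold 1 value per gene and library, read as FPKM computed by the authors, since no label or header names the unit. GRCm38 is the build per the submitters' processing notes. Aligner, counter, annotation and strand: not given in the sources used here. Only 25.8% to 26.7% of low values lay within 0.05 of whole multiples of 1 read's worth, so reads were not recovered and no counting intervals are given. One column headed with a letter was assigned to replicate 3 by the file's sample. Of 25044 entries, 22022 matched GENCODE M21, which gave symbols, coordinates and exons. RefSeq promoters were found for 31 members.

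The test set was the 17630 genes with a mean of at least 0.1 FPKM, on log2(FPKM + 0.1), a scale that shrinks differences at low levels. Differences from a subunit of known role in assembly, subtracted within the library, were fitted in limma 3.58.1 (R 4.3.3) with an intercept, two-sided, adjusted by Benjamini-Hochberg over 17629 genes, at 0.05. Prior degrees of freedom were limited to 3.78, from a fit without that subtraction, since all differences share 1 gene's deviation. Variance was tested, upper tail, against limma's trended, robust prior. Fits were also run on simulated levels with noise drawn independently for each gene. Such levels do not copy shifts shared by many genes within a library, and no result here rests on them. Alternatives were pseudocounts, filters, priors, values multiplied by the longest transcript's length, scalings between libraries and leaving out each replicate. Python 3.11.15 with pandas 2.3.3, numpy 2.4.6 and matplotlib 3.10.9 did the rest.

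Members and lists were chosen with earlier results of these data known. Values in every library are given for members at 5 FPKM or more, the 3 most abundant of each list, the subunits compared against and the 8 with the largest ratio of highest to lowest library, and of partners the 3 most abundant of each list are named, except 1 that is not reported here. Adar, Myog and other values in the text outside that rule were chosen after they were seen.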

Additional observations from a re-analysis of the deposited data

Results flagged for a closer look

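Dixon's gap test found 1 library apart from the rest for 8 of 29 members, where chance gives about 5% and all genes tested gave 7.32%. Replicate 3 was apart for Gabra4 at 33.5 FPKM and Gabrd at 24.0 FPKM, both high, and for Glra3 at 4.33 FPKM, low. Replicate 2 was apart and high for Chrna6 at 29.5 FPKM, Chrnb3 at 8.03 FPKM, Chrna5 at 4.21 FPKM and Chrna2 at 0.955 FPKM. Replicate 1 was apart and high for Glrb at 112 FPKM. On the log2 scale Gabra4, Gabrd, Chrnb3, Chrna5 and Chrna2 no longer had a library apart.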

How the results depend on the processing

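Samples could not be paired between groups because all form 1 group, while the differences between genes were taken within each library. Of 221 alternative values for single members, 207 kept their direction and side of the threshold, 4 newly passed, 2 no longer passed and 8 changed sign. Of the sign changes, 3 came on values multiplied by transcript length, by that construction, with Gabrb1 against Gabrb2 at 1.47, Chrna4 against Chrnb2 at -0.10 and Chrna6 against Chrnb2 at -0.92, so that 1 beta member and 0 nicotinic members were higher. The other 5 came on leaving out replicate 1 or 2 and passed neither there nor in the reported fit. Over the 4 replicates left out in turn, Gabrg3 against Gabrd lay at -0.30 to 1.56 (-0.18 without replicate 1), Gabre against Gabrd at -0.45 to 1.885 (-0.16 without replicate 1) and Chrna6 against Chrnb2 at -0.0011 to 0.31. With no filter 1 alpha member, Gabra6, was lower than Gabra2. With a filter of 1 FPKM, 4 nicotinic members were lower than Chrnb2, as only 6 were tested. With the prior not limited, 1 member, Gabrr1, was lower than Gabrd. Leaving out 1 replicate at a time gave 0 to 1 beta members lower, 0 to 2 members higher than Gabrd and 0 to 1 nicotinic members higher. It gave 0 to 8 genes called for variance, with 4 without replicate 3 and 8 without replicate 4, and 7 to 10 members at an unadjusted p under 0.05. That count was 2, against 5.46% of all genes, with an untrended prior, and the cause was not tested. On a log2 scale, chosen after seeing the data, 3 members had 1 library apart, against 6.93% of all genes. Htr3b against Htr3a gave no value with the filter of 1 FPKM or without replicate 2 or 4. Unknown depth limits members near 0.1 FPKM and below, whose order is not read.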
